A study of Ovis aries with 19 samples.

Results

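The 10 genes described here encode enzymes that build and break down triglyceride, the storage fat of cells: GPAM, AGPAT2, AGPAT3, LPIN1, LPIN2, LPIN3, DGAT1, DGAT2, LIPE and MGLL. They were found by name among 28524 gene identifiers measured in liver and muscle of female sheep, and all 10 were present. The tested animals were 5 females that had been exposed to excess testosterone before birth, called treated sheep here, and they were compared with 5 control females. Liver was represented by 5 treated sheep (48, 63, 185, 233 and 255) and 4 control sheep (98, 131, 179 and 201), and muscle by the same 9 animals together with control sheep 132. The labels give neither the breed, the age at sampling, the testosterone dose nor the muscle sampled, and the RNA came from whole tissue, so fewer cells of a type and less RNA per cell cannot be told apart.

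Triglyceride is made by adding fatty acids one after another to a glycerol phosphate backbone. Glycerol-3-phosphate acyltransferases such as GPAM add the first, 1-acylglycerol-3-phosphate acyltransferases such as AGPAT2 and AGPAT3 the next, lipins then remove the phosphate to give diacylglycerol, and DGAT1 or DGAT2 adds the last fatty acid. Breakdown runs in steps as well, in which hormone-sensitive lipase (LIPE) cuts diacylglycerol and monoglyceride lipase (MGLL) frees the last fatty acid. Liver uses the pathway to store fat and to load lipoproteins, while muscle stores triglyceride as a fuel. Lipin 1 is the main lipin of skeletal muscle, and it also acts in the nucleus as a coactivator of fatty acid oxidation genes.

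Recovered reads per library lay between 8455563 and 16046301, and values are normalized read counts, scaled within each tissue. Markers of the labelled tissues were present in each library. Albumin (ALB) never fell below 112956 in liver nor exceeded 16.2 in muscle, whereas skeletal actin (ACTA1) never fell below 154279 in muscle nor exceeded 9.12 in liver. No library repeated another of its group: across the 36 pairs within groups, the lowest chi-square was 19.4 per degree of freedom. Libraries of different groups were not compared in this way. The library of treated muscle 48 stood apart, with 27.9% of its reads in its 50 most abundant genes, against 32.7% to 38.6% in the other muscle libraries. Control liver 201 had reads from 20704 genes, against 16852 to 18289 in the other liver libraries.

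The share of reads from each gene was set side by side in the tissues of control sheep, in RPM (reads scaled to a common library total), as a description without a test because the tissues were scaled separately. LPIN1 and LIPE gave far larger shares in muscle, with no overlap between the tissues. LPIN1 gave 4.85 ± 1.20 RPM in control liver and 621 ± 134 in control muscle (SD, n = 4 and 5), a mean 128-fold higher in muscle, and LIPE gave 0.400 ± 0.205 in control liver and 40.3 ± 7.48 in control muscle. GPAM, AGPAT2, LPIN2 and DGAT2 lay the other way, and their lowest control liver library was above their highest control muscle library. Their mean shares in control liver were 9.71, 14.7, 9.48 and 4.11 times those in control muscle, in that order. AGPAT3 and MGLL were close in both tissues, at 139 ± 23.4 and 87.7 ± 44.3 RPM in control liver and 144 ± 11.1 and 89.3 ± 8.22 in control muscle. The ranges of LPIN3 and DGAT1 overlapped between the tissues, with mean shares 1.54 and 2.46 times higher in liver.

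**Figure D1:**
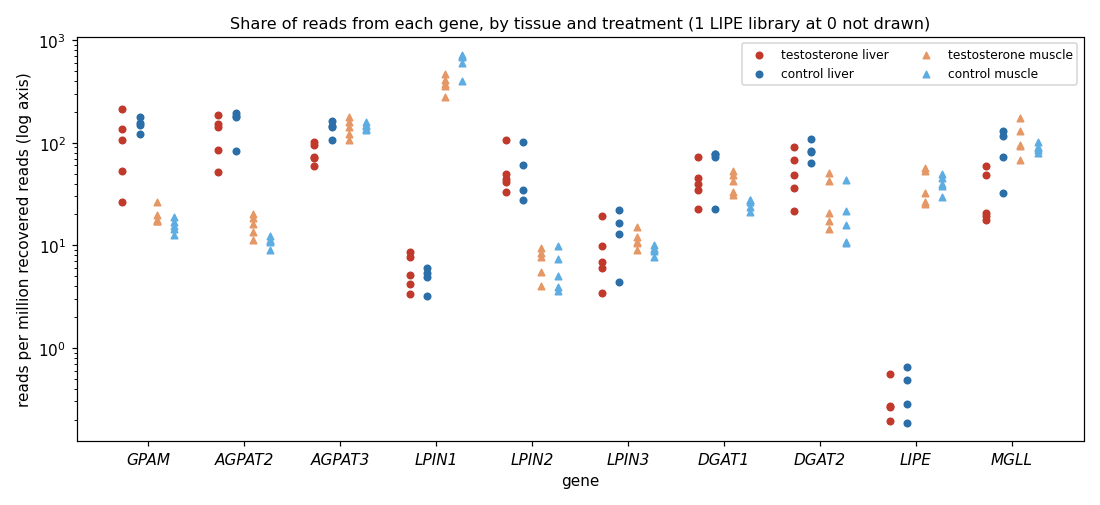
RPM (log axis) of each gene in every library, with liver as circles and muscle as triangles, and treated sheep to the left of control sheep within each tissue; 1 treated liver with no LIPE read is not drawn. LPIN1 and LIPE sit far higher in muscle, GPAM, AGPAT2, LPIN2 and DGAT2 higher in liver, and AGPAT3 and MGLL at similar heights in both.

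The first comparison asked which of these genes differed in liver after prenatal testosterone. Values of most of them were lower in treated liver, and the lowest relative to control were MGLL, at 0.411 times its control mean, and AGPAT3, at 0.627 times. By limma, 0 of the 9 members tested passed an adjusted p of 0.05, as did 0 by edgeR and 0 by DESeq2, against 0.00733% of all 13640 liver genes by limma. At an unadjusted p under 0.05, 2 of the 9 were lower (AGPAT3 and MGLL) and 0 were higher, where 2.17% of all genes were lower, 1.82% higher and 3.99% either. Of the 9, 7 had a log2 fold change below 0 and 2 above 0, against 49.6% and 50.4% of all genes. Their median was -0.51, against 0.0032 over all genes, and it ran from -0.60 without control liver 179 to -0.27 without control liver 98 and -0.26 without treated liver 255. LIPE had a mean below 10 in liver and was not tested there.

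AGPAT3, which adds a fatty acid to lysophosphatidic acid and to other lysophospholipids, had a normalized read count of 1149.8 in treated sheep 48, 1208 in 63, 804 in 185, 720.4 in 233 and 969.6 in 255, against 1635 in control sheep 98, 1458 in 131, 1426 in 179 and 1673 in 201. Every treated liver lay below every control liver, which held for 0.682% of all liver genes and for no other member. The opposite order, with every treated liver above every control, held for 0 of the 9 members and 0.858% of all liver genes. The log2 fold change was -0.70 ± 0.22 (SE), with a 95% interval of -1.18 to -0.21, an unadjusted p of 0.00835 and a limma adjusted p of 0.908. With 1 library left out in turn it ran from -0.78 to -0.60, and it was -0.66 without control liver 201. AGPAT2, of the same reaction and the gene lost in a form of congenital lipodystrophy in people, did not separate the groups. Its counts ran from 712 to 2094 in treated liver and from 1111 to 2098 in control liver, with a log2 fold change of -0.32 ± 0.34 (SE).

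MGLL had normalized read counts of 249 in treated sheep 48, 576 in 63, 668 in 185, 215 in 233 and 263 in 255, against 1172 in control sheep 98, 742 in 131, 432 in 179 and 1488 in 201. All 5 treated livers were below the control mean, and treated livers 63 and 185 overlapped with the lowest control, 179. The means were 394 ± 211 (SD, n = 5) in treated and 958 ± 465 (SD, n = 4) in control liver. The log2 fold change was -1.29 ± 0.43 (SE), with a 95% interval of -2.23 to -0.36, an unadjusted p of 0.0109 and a limma adjusted p of 0.935. Without control liver 201 the log2 fold change was -1.03, and it was -1.63 without control liver 179.

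LIPE was at the edge of detection in liver. Its libraries held 0 to 6 reads in treated liver, 14 in all, and 3 to 10 reads in control liver, 21 in all. Treated liver 255 had 0 reads, which allows up to 0.239 RPM at a floor of 3 reads and covers counting error only.

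GPAM, the mitochondrial enzyme of the first acylation, ranged widely among treated livers, with an SD of 1013, against 454 among control livers. It had 1633, 1282, 593, 323 and 2897 normalized read counts in treated sheep 48, 63, 185, 233 and 255, against 1492, 1621, 2392 and 1397 in control sheep 98, 131, 179 and 201. DGAT2, the acyltransferase tied to newly made fatty acids, had 822, 577, 401, 264 and 1227 in the same treated sheep, against 1094, 831, 1102 and 726 in the same controls. For both genes 3 treated livers (63, 185 and 233) were below every control and 1 (255) was above every control. The log2 fold changes were -0.71 ± 0.52 (SE) for GPAM and -0.69 ± 0.39 (SE) for DGAT2, with limma adjusted p-values of 0.999. Without treated liver 255 they were -1.08 and -0.96, at unadjusted p-values of 0.0347 and 0.0158 and a limma adjusted p of 0.996 or more, and the number of members lower at an unadjusted p under 0.05 became 4. Without treated liver 233, the lowest of its group, they were -0.29 for GPAM and -0.41 for DGAT2, at unadjusted p-values of 0.506 and 0.257 and a limma adjusted p of 0.999.

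DGAT1, the acyltransferase of the endoplasmic reticulum that also handles fatty acids from outside the cell, ran from 311 to 803 in treated liver, with a median of 486, and from 299 to 826 in control liver, with a median of 788. The low control was sheep 179 at 299, and the other controls lay between 771 and 826. The log2 fold change of DGAT1 was -0.36 ± 0.35 (SE), and it was -0.72 at an unadjusted p of 0.0299 and a limma adjusted p of 0.570 without control liver 179. Leaving out any other library gave -0.54 to -0.20, the smallest without treated liver 255. The lipins had no common direction. LPIN2, the main lipin of liver, averaged 662 ± 313 (SD, n = 5) in treated and 627 ± 377 (SD, n = 4) in control liver, with its highest value in sheep 185 among treated (1201) and in sheep 201 among control livers (1164). LPIN1 averaged 71.7 ± 31.0 in treated and 54.7 ± 14.7 in control liver, and LPIN3 107 ± 66.0 in treated and 149.9 ± 70.8 in control liver. The log2 fold changes were 0.15 ± 0.39 (SE) for LPIN2, 0.32 ± 0.36 (SE) for LPIN1 and -0.51 ± 0.47 (SE) for LPIN3, each at a limma adjusted p of 0.999.

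**Figure D2:**
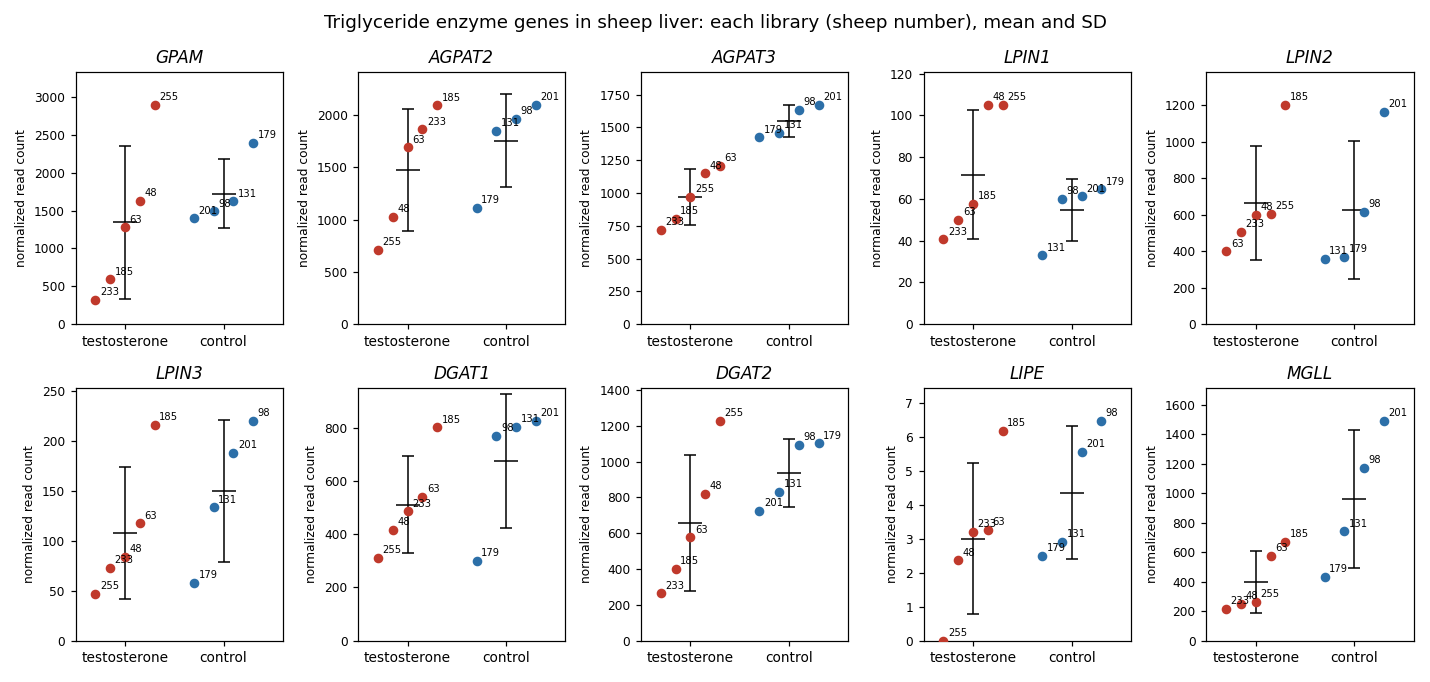
Normalized read count of each gene in every liver library, with the sheep number beside each point and the mean and SD of each group as a bar (n = 5 treated, 4 control). AGPAT3 is the gene whose groups do not overlap, MGLL is lower in 5 of 5 treated livers than the control mean, and GPAM and DGAT2 span a wide range in treated liver.

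Some of these genes varied together from liver to liver. The deviations of log2 values from each group's mean were compared for all 36 pairs of the 9 members, with exact permutation of the libraries within their group. By Pearson's r 4 of the 36 pairs passed an adjusted exact permutation p of 0.05, and by Spearman's rho 0 did. The share of pairs passing among other liver genes was not measured, so this count cannot be read as particular to these enzymes. GPAM and DGAT2 moved together, with a Pearson's r of 0.96 (exact permutation p = 0.00313, adjusted over the 36 pairs 0.0438) and a Spearman's rho of 0.95 (exact permutation p = 0.00625, adjusted 0.0750). LPIN3 moved with DGAT1, with an r of 0.93 (exact permutation p = 0.00417, adjusted 0.0438) and a rho of 0.90 (exact permutation p = 0.0104, adjusted 0.0750). LPIN3 also moved with MGLL, with an r of 0.89 (exact permutation p = 0.00486, adjusted 0.0438) and a rho of 0.90 (exact permutation p = 0.0059, adjusted 0.0750), and AGPAT2 with DGAT1, with an r of 0.87 (exact permutation p = 0.00313, adjusted 0.0438) and a rho of 0.70 (exact permutation p = 0.0260, adjusted 0.134).

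Between GPAM and DGAT2 on one side and AGPAT2 on the other the correlations were negative, without passing the adjusted threshold. GPAM and AGPAT2 had an r of -0.85 (exact permutation p = 0.0142, adjusted 0.0750) and a rho of -0.87 (exact permutation p = 0.0188, adjusted 0.113), and AGPAT2 and DGAT2 an r of -0.85 (exact permutation p = 0.0156, adjusted 0.0750) and a rho of -0.88 (exact permutation p = 0.00903, adjusted 0.0750). Treated liver 255 and control liver 179 showed this most, being the highest of their group for GPAM and DGAT2 and the lowest for AGPAT2, DGAT1 and LPIN3. Leaving out the 2 libraries farthest from the median of the first gene of a pair gave an r of 0.85 for GPAM and DGAT2, 0.87 for LPIN3 and DGAT1, 0.79 for LPIN3 and MGLL, 0.71 for AGPAT2 and DGAT1, -0.85 for GPAM and AGPAT2 and -0.76 for AGPAT2 and DGAT2. The libraries left out differed with the first gene and were not always 255 and 179. Control 179 stayed in for the GPAM pairs, and treated 255 for the LPIN3 pairs. All pairs share the same 9 libraries, and the labels name no batch within a tissue. The summed count of 6 hepatocyte markers, most of it from ALB and FGA (a fibrinogen chain), was also highest of each group in these livers. It stood at 1516204 in treated 255, against 636136 to 1021509 in the other treated livers. In control 179 it was 1148049, against 657619 to 744942 in the other control livers. Its part in the pattern was not tested. In muscle the same measure over 45 pairs gave 0 pairs past an adjusted exact permutation p of 0.05, 2 with an unadjusted p under 0.05, and an r of 0.31 for GPAM and DGAT2 (rho 0.37, exact permutation p = 0.409 and 0.339, adjusted 0.983 and 0.849).

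**Figure D3:**
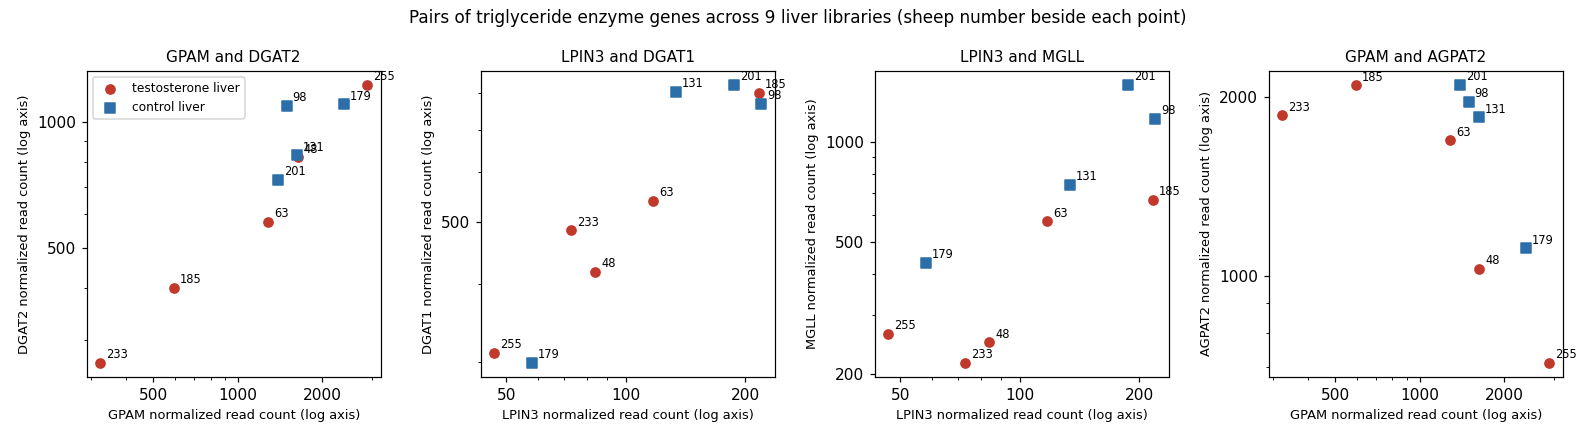
Normalized read counts of 4 pairs of genes across the 9 liver libraries (log axes), with treated livers as circles, control livers as squares and the sheep number beside each point. GPAM rises with DGAT2 and LPIN3 with DGAT1 and MGLL, while AGPAT2 is low where GPAM is high, in treated 255 and 48 and in control 179.

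Of a list of 32 other enzymes and regulators of the pathway, 30 were found and 26 could be tested in liver. By limma 0 passed an adjusted p of 0.05. At an unadjusted p under 0.05, 7 were lower and 0 higher, against the 2.17% lower and 1.82% higher over all genes, and 20 of 26 lay below 0, with a median log2 fold change of -0.27. They came from several steps. ACSL1 and ACSL5, which activate fatty acids to acyl-CoA, averaged 7932 ± 1707 and 1391 ± 398 (SD, n = 5) in treated and 13585 ± 4007 and 2350.4 ± 262 (SD, n = 4) in control liver, and every treated liver lay below every control for ACSL5. GPAT3, which like GPAM makes the first acylation, averaged 109 in treated and 236 in control liver, LCLAT1, a lysophospholipid acyltransferase, 127 and 209 in that order, and GK, glycerol kinase, 2068 and 3614. TM6SF2, which helps to load lipid on lipoproteins, averaged 196 in treated and 487 in control liver, and G0S2, an inhibitor of triglyceride lipase, 737 in treated and 2223 in control liver. The smallest limma adjusted p of these 7 was 0.865, for TM6SF2.

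Markers of other cell types were read beside these values. The summed count of 8 adipocyte markers ran from 185 to 426 in treated and from 359 to 640.2 in control liver, and 7 of the 8 had reads in each group. The defining adipocyte genes were at or near 0: ADIPOQ, adiponectin, was at 0 in every control liver and at most 1.18 in treated liver, and LEP, leptin, was at 0 in every treated liver and at most 3.34 in control liver. The largest of the 8 were FABP4, CIDEA and CIDEC, averaging 91.1, 84.3 and 40.2 in treated and 181, 113 and 93.2 in control liver. LPL and PLIN1 were also lower in treated liver, while ADIRF averaged 13.3 in treated and 12.7 in control liver. The sum therefore cannot be read as a measure of fat cells in liver. Of the hepatocyte markers, ALB and FGA made up most of the sum, averaging 619055 and 323261 in treated and 480433 and 273683 in control liver. TTR also had a higher mean in treated liver, while APOB, SERPINA1 and HNF4A had lower means there. Scaling to the sum therefore mostly follows ALB and FGA and cannot be read as scaling to hepatocyte content. Per 1000 counts of the hepatocyte markers, AGPAT3 gave 0.640 to 1.33 in treated and 1.24 to 2.49 in control liver. MGLL gave 0.174 to 1.05 in treated and 0.376 to 2.00 in control liver, so the groups overlapped on that scale. The means of AGPAT3 on it were 1.02 ± 0.308 in treated and 1.99 ± 0.539 in control liver. Those of MGLL were 0.465 ± 0.374 in treated and 1.29 ± 0.744 in control liver (SD, n = 5 and 4). Per 1000 counts of the adipocyte markers, AGPAT3 had the higher mean in treated liver, at 3825 ± 740 (SD, n = 5) against 3410.0 ± 828 (SD, n = 4) in control liver. MGLL had the lower mean in treated liver, at 1552 ± 892 (SD, n = 5) against 2171 ± 1157 (SD, n = 4) in control liver. Its ranges were 812 to 3100.5 in treated and 675 to 3464 in control liver. The summed count of 8 T and NK cell markers was 558 in treated liver 48, 660 in 63, 438 in 185, 505 in 233 and 332 in 255, against 247 to 415 in control liver. That sum exceeded every control in 4 of 5 treated livers, and all 8 of these markers had a higher mean in treated liver. The sums of 5 macrophage and 5 endothelial markers overlapped between the groups, at 2289 to 6382 and 1199 to 1712 in treated and 2315 to 5538 and 1104 to 1699 in control liver. The part of cell composition in the liver values was not tested.

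Treated and control muscle were then compared in the same way. LPIN1 had the largest difference there, at 0.526 times its control mean in treated muscle, and DGAT1 and AGPAT2 had higher values, at 1.41 and 1.26 times. By limma 0 of the 10 members passed an adjusted p of 0.05, by edgeR 0 passed and by DESeq2 1 passed (LPIN1, lower). Over all 12966 muscle genes limma called 0.00771%, while DESeq2 called 95 lower and 145 higher. At an unadjusted p under 0.05, 1 of the 10 was lower and 2 were higher, where 7% of all genes were lower, 7.37% higher and 14.4% either. Of the 10, 3 lay below 0 and 7 above, against 51.6% and 48.4% of all genes. No member separated the groups, while every treated muscle lay below every control for 1.53% of all genes and above for 1.76%. The median log2 fold change of the 10 was 0.092, against -0.013 over all genes.

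LPIN1 had normalized read counts of 3632 in treated sheep 48, 5429 in 63, 2821 in 185, 3889 in 233 and 3931 in 255, against 9053 in control sheep 98, 7524 in 131, 4478 in 132, 8225 in 179 and 8141 in 201. Of the 5 treated muscles, 4 were below every control, and treated 63 lay above the lowest control, 132. The means were 3940.2 ± 944 in treated and 7484 ± 1767 in control muscle (SD, n = 5 each). The log2 fold change was -0.92 ± 0.21 (SE), with a 95% interval of -1.37 to -0.47, an unadjusted p of 6.55e-04, the 62nd smallest of 12966, and a limma adjusted p of 0.135. The DESeq2 adjusted p was 0.00314, while the adjusted p over all alternatives ran from 0.00314 to 0.625 and the log2 fold change from -1.09 to -0.80. Without treated muscle 48 the log2 fold change was -0.90.

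The summed markers of muscle fibres lay below every control in 4 of 5 treated muscles, though not for each marker. The summed count of 6 fibre markers was 708531 in treated muscle 48, 995385 in 255, 1112593 in 185, 1284024 in 233 and 1398024 in 63, against 1328336 to 1583233 in control muscle. MYH1, a fast myosin and the most abundant of them, averaged 471795 in treated and 710412 in control muscle, while CKM, muscle creatine kinase, averaged 182882 in treated and 180411 in control muscle, the only one of the 6 with a higher mean in treated muscle. Per 1000 counts of these markers LPIN1 gave 3.70 ± 0.992 in treated and 5.15 ± 1.16 in control muscle (SD, n = 5 each), and the ranges of 2.54 to 5.13 and 3.16 to 6.13 overlapped. The part of fibre content in the LPIN1 values was not tested further. The other lipins differed by less than their spread. LPIN2 averaged 72.2 ± 21.7 in treated and 70.7 ± 29.5 in control muscle, and LPIN3 119 ± 22.3 in treated and 109 ± 10.8 in control muscle (SD, n = 5 each). The ratio of LPIN1 to LPIN2 counts ran from 29.6 to 92.0 in treated and from 40.3 to 191 in control muscle.

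DGAT1 had 475, 495, 492, 359 and 324 normalized read counts in treated sheep 48, 63, 185, 233 and 255, against 269, 337, 267, 327 and 317 in control sheep 98, 131, 132, 179 and 201. All but treated 255 lay above every control, and its value lay between those of controls. The log2 fold change was 0.48 ± 0.15 (SE), with a 95% interval of 0.16 to 0.80, an unadjusted p of 0.00599 and a limma adjusted p of 0.196. AGPAT2 had 181, 158, 164, 124 and 196 in the same treated sheep, against 114, 136, 123, 146 and 131 in the same controls, and 4 of 5 treated muscles were above every control. Its log2 fold change was 0.32 ± 0.15 (SE), with an unadjusted p of 0.0477 and a limma adjusted p of 0.344. Without treated muscle 48 the log2 fold changes were 0.44 for DGAT1 and 0.29 for AGPAT2, at unadjusted p-values of 0.0169 and 0.100 and limma adjusted p-values of 0.359 and 0.529. The 8 adipocyte markers, summed, ran from 1191 to 2531 in treated and from 1431 to 2981 in control muscle, all 8 with reads in both groups. ADIPOQ averaged 70.9 in treated and 215 in control muscle, and LEP, PLIN1, CIDEC, FABP4 and ADIRF also had lower means in treated muscle. LPL, the most abundant of the 8, averaged 1175 in treated and 1170 in control muscle, and CIDEA 5.36 in treated and 4.71 in control muscle. The summed T and NK cell markers ran from 190.5 to 327 in treated and from 149 to 218 in control muscle. Treated muscles 48, 63 and 233, at 327, 229 and 317, were above every control, and all 8 of these markers had a higher mean in treated muscle, as in liver. Macrophage markers ran from 260.2 to 811 in treated and 283 to 713 in control muscle, and endothelial markers from 2058 to 3746 in treated and 2746 to 4193 in control muscle. The part of these cells in the DGAT1 and AGPAT2 values was not tested.

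The remaining members overlapped between the groups in muscle. DGAT2 averaged 290.0 ± 137 in treated and 249 ± 175 in control muscle, GPAM 205 ± 48.3 in treated and 188 ± 34.6 in control muscle, and AGPAT3 1489 ± 380.1 in treated and 1723 ± 77.6 in control muscle (SD, n = 5 each). The lipases did not separate the groups either. LIPE averaged 412 ± 183 in treated and 481 ± 70.2 in control muscle, and MGLL 1174 ± 459.7 in treated and 1074 ± 138 in control muscle (SD, n = 5 each). The treated sheep had the wider range for both lipases, from 225 to 664 for LIPE and from 715 to 1784 for MGLL, with sheep 63 and 185 the highest for both. The 95% intervals of the log2 fold changes of these 5 genes reached from -0.86 for LIPE to 1.18 for DGAT2.

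**Figure D4:**
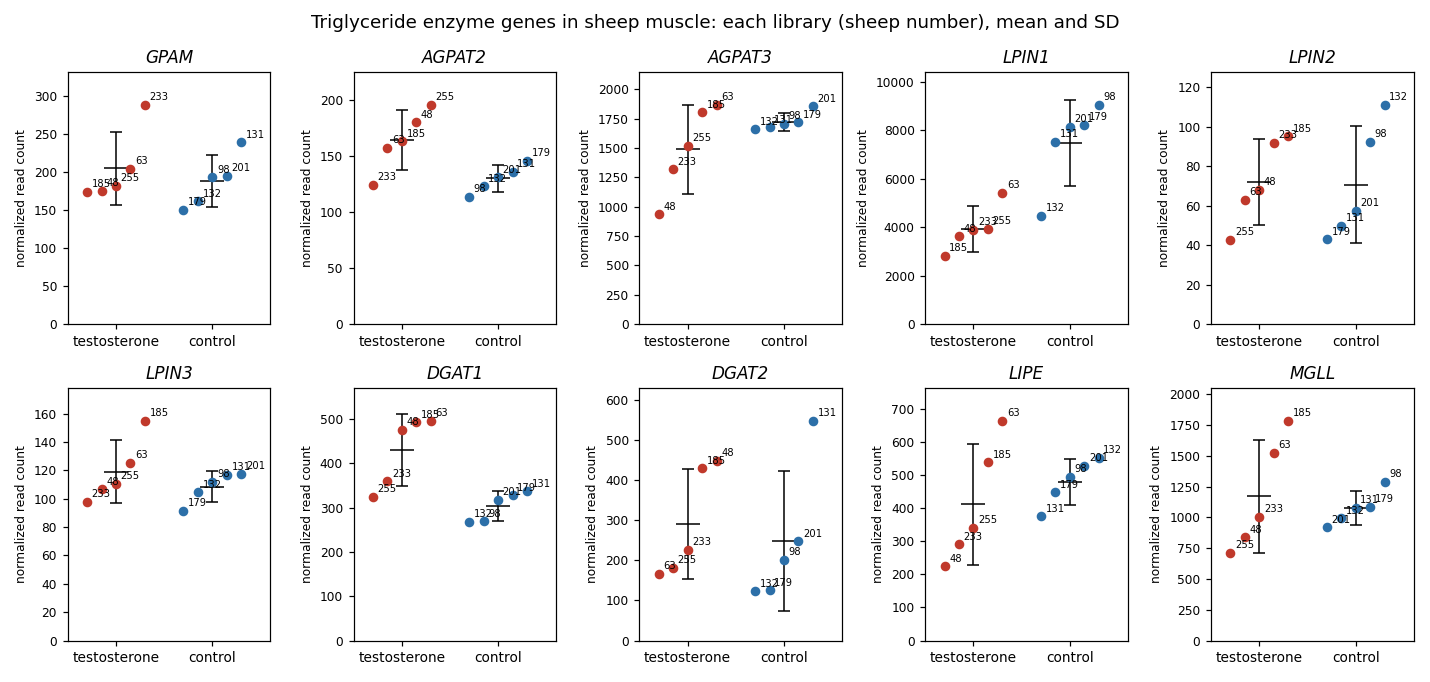
Normalized read count of each gene in every muscle library, with the sheep number beside each point and the mean and SD of each group as a bar (n = 5 each). LPIN1 is lower in 5 of 5 treated muscles than the control mean, and DGAT1 and AGPAT2 exceed every control in 4 of 5 treated muscles.

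Of the other enzymes of the pathway 23 could be tested in muscle, and by limma 0 passed an adjusted p of 0.05. AGPAT4 averaged 17.6 ± 8.77 in treated and 5.09 ± 4.01 in control muscle (SD, n = 5 each), so it entered the test only through the treated libraries. Without it, a choice made after its values were seen, 2 of 22 were lower and 2 higher at an unadjusted p under 0.05, against 7% and 7.37% of all genes, and the median log2 fold change was -0.11. AGPAT1, of the same reaction as AGPAT2, had 257 to 348 in treated muscle and 197 to 218 in control muscle. Every treated muscle exceeded every control for AGPAT1, which held for 1.76% of all muscle genes, and its limma adjusted p was 0.145. G0S2 averaged 19.5 ± 7.14 in treated and 10.8 ± 2.80 in control muscle (SD, n = 5 each). The genes with lower values were GPAT4, of the first acylation, with 1272 in treated and 1513 in control muscle, and DDHD2, a triglyceride lipase best known from the brain, with 429 in treated and 555 in control muscle.

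The difference between the tissues was tested as the liver effect minus the muscle effect over 11697 genes, with LIPE not tested. Of the 9 members, 0 passed an adjusted p of 0.05 by limma, 0 by edgeR and 0 by DESeq2, against 0.00855% of all genes by limma. At an unadjusted p under 0.05, 2 were lower and 1 higher, where 2.56% of all genes were lower, 2.34% higher and 4.9% either. Of the 9, 7 lay below 0 and 2 above, against 48.6% and 51.4% of all genes. LPIN1 stood highest, with a difference of 1.24 ± 0.40 (SE) on the log2 scale, an unadjusted p of 0.00497 and a limma adjusted p of 0.831. Most of it came from muscle, at -0.92 ± 0.21 (SE). The liver effect was 0.32 ± 0.36 (SE), with a 95% interval of -0.47 to 1.11 that includes 0. MGLL had -1.34 ± 0.50 (SE) at an unadjusted p of 0.0133 and a limma adjusted p of 0.897, and DGAT1 -0.84 ± 0.38 (SE) at an unadjusted p of 0.0380 and a limma adjusted p of 0.973. Without sheep 201 only LPIN1 had an unadjusted p under 0.05, and without sheep 179 there were 5 such members. Over all genes with an unadjusted p under 0.05 the split was 299 lower and 274 higher in the deposited scaling and 500 lower and 113 higher after TMM rescaling, which moved the median difference of all genes to -0.12, against 0.016 in the deposited scaling. Relative to the median of all genes after TMM rescaling, MGLL lay at -1.36, LPIN1 at 1.23 and DGAT1 at -0.86.

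**Figure D5:**
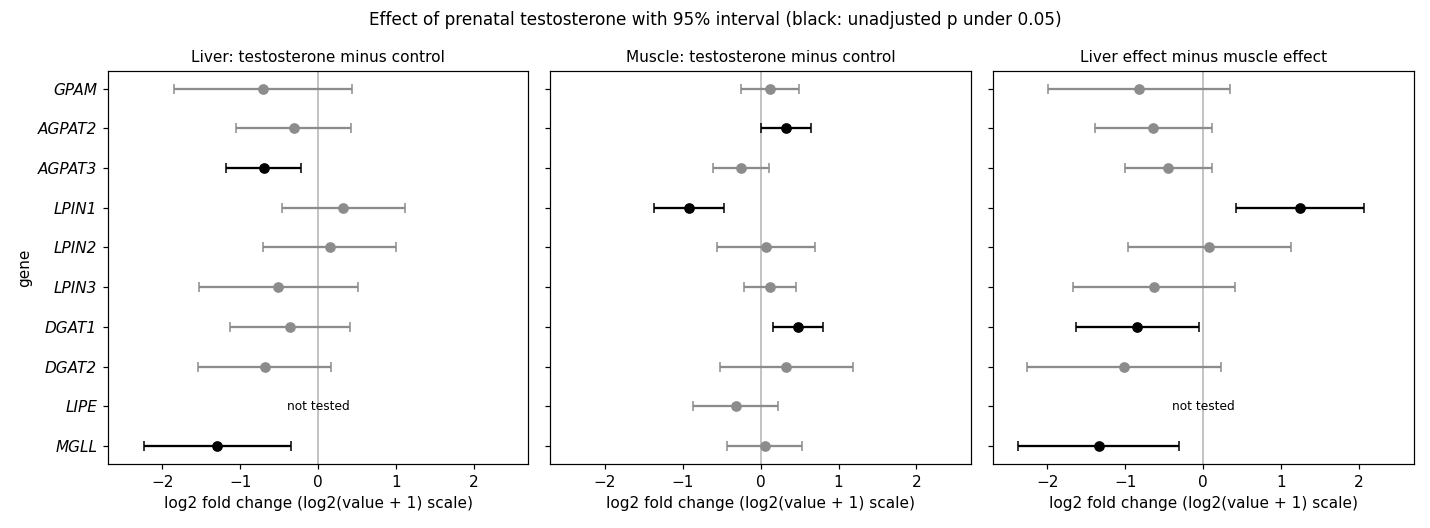
Log2 fold changes of treated against control liver (left) and muscle (middle) and the liver effect minus the muscle effect (right), each with its 95% interval from limma, and black where the unadjusted p is under 0.05. In each panel 0 of these genes passed the adjusted threshold.

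Genes whose log2 values followed these members most closely over all libraries of a tissue were read off as a description, treatment differences included. MGLL in liver was followed by ADAM33, a metalloprotease gene, ZNF575, a zinc finger gene, and SLC25A22, a mitochondrial glutamate carrier, with a Pearson's r of 0.97, 0.96 and 0.96 over 9 libraries. SLC25A22 averaged 523 in treated and 1052 in control liver. ZNF575 averaged 9.91 in treated and 21.4 in control liver, so it passed the mean of 10 only through the control livers. AGPAT3 in liver was followed by TRNAM-CAU_1, a methionine transfer RNA, LOC114114890 and GHRHR, the receptor of growth hormone-releasing hormone, with an r of 0.96, 0.95 and 0.94. These are low genes, averaging 30.3, 7.95 and 7.31 in treated and 59.4, 15.9 and 29.5 in control liver. LOC114114890 and GHRHR likewise passed the mean of 10 only through the control livers. LPIN1 in muscle was followed by ITCH, a ubiquitin ligase, and THRB, a thyroid hormone receptor, with an r of 0.94 and 0.93 over 10 libraries. THRB averaged 119.9 in treated and 237 in control muscle, and ITCH 953 in treated and 1282 in control muscle. DGAT1 in muscle was followed by ARHGEF1, CARD9, an adaptor of innate immunity, and CCDC85B, with an r of 0.96, 0.96 and 0.95.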

How the data were processed

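Total RNA of liver and muscle was made into TruSeq libraries, per the labels' protocols. The submitters' processing notes name Trimmomatic, STAR and featureCounts 1.6.1. Genome build, annotation and strand setting are not given in the sources used here, so no coordinates are given and overlapping antisense genes cannot be told apart. The deposited signal is a normalized read count per gene. Within each library 100% of the values above 0 were whole multiples (within 0.01) of what 1 read is worth, and median-of-ratios size factors recomputed in each tissue matched the deposited scaling to a relative 5.35e-10.

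Genes averaging 10 or more across a tissue's libraries were tested on log2(value + 1) by limma 3.58.1 (R 4.3.3), using its trended variance prior, with p-values adjusted over all genes by the Benjamini-Hochberg method and a threshold of 0.05, in each tissue on its own libraries. Fold changes on that scale understate changes of low genes. The members, gene lists and rules were chosen with earlier results of these data known. Named were the members, other pathway enzymes with an unadjusted p under 0.05, and the 3 genes most like the 2 members of smallest p per tissue, of which 1 is not reported here. edgeR 4.0.16 and DESeq2 1.42.0 on the recovered reads were alternatives. The sheep number pairs the tissues because both come from 1 animal; after removing group means, the median correlation was 0.18 between tissues of one sheep and -0.019 between tissues of different sheep. The fits were tested on simulated counts.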

Additional observations from a re-analysis of the deposited data

Results flagged for a closer look

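In groups of 4 or 5 libraries, 6 single libraries stood far from the rest of their group by Dixon's test, over 82 groups of 21 genes; chance flags about 1 in 20 groups. DGAT1 was 299 in control liver 179, against 771 to 826 in the other control livers. LPIN1 was 32.9 in control liver 131, against 60.1 to 64.7 in the others. LPIN2 was 1201 in treated liver 185, against 399 to 606 in the others. GPAM was 289 in treated muscle 233, against 174 to 205 in the others, and GK was 46.9 in the same library, against 20.4 to 26.4. DDHD2 was 464 in control muscle 131, against 564 to 592 in the others.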

How the results depend on the processing

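By limma and edgeR, and on leaving out any 1 library or sheep, 0 members passed an adjusted p of 0.05 in liver, muscle or the difference, and by DESeq2 1 passed, LPIN1 in muscle (-0.93, adjusted p = 0.00314). Members with an unadjusted p under 0.05 numbered 2 to 4 in liver, 2 to 3 in muscle and 1 to 5 in the difference with a library or sheep left out, 1 in muscle with all libraries in 1 fit, and 5 in the difference with array weights. The sheep as a replicate block left 3 such members, the same number, with LPIN1 at 1.42, MGLL at -1.32 and DGAT1 at -0.80, and changed no call. LPIN2 crossed 0 in liver with array weights (-0.024), and in the difference with array weights (-0.23), TMM rescaling (-0.060), edgeR (-0.028) and the replicate block (-0.10). With a library or sheep left out, LPIN2 ran from -0.092 to 0.50 in liver, from -0.084 to 0.25 in muscle and from -0.10 to 0.49 in the difference, and in muscle MGLL ran from -0.12 to 0.21 and GPAM from -0.014 to 0.21. Of the 252 values of single members under the other settings, 246 kept their direction and side of the threshold. As 0 members passed in the main fits, keeping the side was nearly given, and the count does not measure the size of the values. GPAM in liver, for example, ran from -0.74 to -0.36 under these settings. Relative to the median of all genes, LPIN2 in the difference lay at 0.0645 in the deposited scaling and 0.0647 after TMM rescaling. The cause of the changes between settings was not tested.

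Over all genes, limma called 1 in each comparison and DESeq2 33 in liver, 240 in muscle and 11 in the difference. Genes with an unadjusted p under 0.05 numbered 544 in liver, 1862 in muscle and 573 in the difference, and became 1520 in liver and 1669 in the difference with array weights, 936 in liver and 865 in muscle with all libraries in 1 fit, 977 in liver and 1148 in the difference with no filter, 1156 and 829 in liver without control 179 or treated 185, and 1461 in the difference without sheep 179. Intervals cover a wide range in liver, where the median SE of the members was 0.39, against 0.19 in muscle.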
